A study of Mus musculus with 4 samples.

Results

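The 9 genes described here, Mbp, Mog, Mag, Mobp, Cnp, Opalin, Ermn, Sox10 and Myrf, are expressed by mature oligodendrocytes. They were chosen by gene symbol from a table of 15713 genes. The rule uses no measured value, but earlier results of these data were known when it was set. All 9 had a row and all 9 passed the filter on low counts. Hippocampal messenger RNA of C57BL/6 mice, an inbred strain, was sequenced in 4 libraries from animals aged 11 to 12 weeks. The 2 control libraries came from untreated mice, and the 2 ATO libraries from mice given developmental exposure to ATO at 5000 ppb. The labels do not spell out ATO, although the title of the series names arsenic and offspring. The route and window of exposure, the sex, and whether a library is 1 animal or a pool are not stated in the labels. The p-values below therefore measure the spread between these libraries, which may be technical.

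Oligodendrocytes wrap axons of the central nervous system in myelin, a stack of compacted membrane that insulates the axon and speeds conduction. Sox10 is a transcription factor of the whole lineage, and with Myrf, a membrane-anchored transcription factor needed for maturation, it switches on the genes of the myelin sheath. In the hippocampus, myelinated fibres run mainly in the alveus, the fimbria and the perforant path.

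Of the 9 genes, 1 passed the test between the groups, at an edgeR quasi-likelihood test with Benjamini-Hochberg adjusted p under 0.05 over all genes. Opalin, a transmembrane glycoprotein of the oligodendrocyte, fell in ATO to 0.632-fold of control (log2 fold change -0.66 ± 0.13 SE, adjusted p = 0.0107). The other 8 genes, which include the major structural genes Mbp and Mobp, did not pass. Their 95% intervals lay between a fold of 0.783 and 1.33. No member was called higher (0 of 9 by edgeR, by DESeq2 and by limma-voom; 1 of 9, Myrf, at an unadjusted p under 0.05). Over all genes 3.73% were called, 2.87% higher and 0.859% lower, so 1 of 9 is a single gene beside that background. At an unadjusted p under 0.05, 10.6% of all genes were higher and 7.55% lower, and 1 higher gene of 9 is close to that share. The median log2 fold change of the 9 genes was -0.09, against -0.00496 over all genes, and 7 of the 9 fold changes were below 0, as were 51% of all.

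The libraries held 14832214 to 17251032 counts, and the 9 genes together took 47424 to 55756 of these. Mbp alone held 62.8% of the counts of the 9 genes over the 4 libraries, Mobp 22% and Opalin 0.563%. A summed level of all 9 genes is thus mostly a level of Mbp and Mobp. That sum was 3217 and 3294 normalised CPM (CPM, counts scaled by the TMM-adjusted library size) in control replicates 1 and 2, and 3201 and 3070 in ATO replicates 1 and 2. Both ATO libraries lay below both controls, by a margin smaller than the distance between the ATO libraries. This order depended on the TMM scaling. As a share of all counts, the 9 genes took 0.320% and 0.330% in control replicates 1 and 2. They took 0.323% and 0.305% in ATO replicates 1 and 2, so on that scale the groups overlapped. In bulk tissue, fewer oligodendrocytes and less RNA per oligodendrocyte cannot be told apart. Markers of Schwann cells, which make peripheral myelin, were low: the 4 tested genes of that list summed to 19.5 to 27.0 CPM per library.

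Compared per length of transcript, on the deposited FPKM scale, the sheath genes Mbp, Mobp, Cnp, Mag and Mog were the most abundant members. Mbp stood at a mean of 236 FPKM over the 4 libraries (range 228 to 241), above 99.4% of all genes. Mobp followed at 103 FPKM and Cnp at 54.7 FPKM. Mag had 27.0 FPKM and Mog 23.0 FPKM, both proteins of the sheath surface. Ermn stood at 13.3 FPKM and the transcription factor Sox10 at 9.66 FPKM. Opalin (6.18 FPKM) and Myrf (4.72 FPKM) were the lowest, with Myrf above 48.6% of all genes. The 4-library ranges of neighbours in this order did not overlap, except for Opalin and Myrf. In the controls Opalin, at 7.53 and 7.59 FPKM, lay above Myrf, at 4.13 and 4.59 FPKM. In ATO replicate 1 Opalin was at 4.51 and Myrf at 5.05 FPKM, and in ATO replicate 2 both were at 5.09 FPKM. The lower end of the order thus differed between the groups, while the order of the other 7 genes was the same in all 4 libraries.

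**Figure D1:**
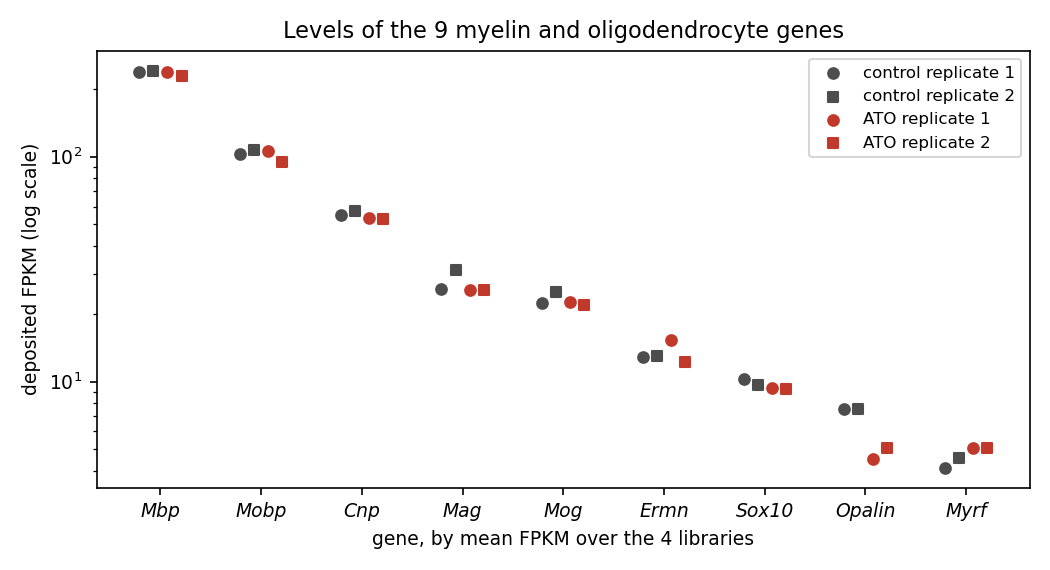
Deposited FPKM of the 9 genes in each of the 4 libraries, on a log axis, ordered by the mean over the libraries; each point is 1 library. Mbp lies highest at 228 to 241 FPKM, and Opalin has the widest gap between its ATO points (4.51 and 5.09) and its control points (7.53 and 7.59). The groups are also apart, by less, for other genes such as Myrf (4.13 and 4.59 in control, 5.05 and 5.09 in ATO).

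The genes lie at 9 separate loci. On the mouse build GRCm38 (GENCODE vM21), Mbp spans 82475146 to 82585637 on chromosome 18, plus strand, and Mobp 120149707 to 120181484 on chromosome 9, plus strand. Mog spans 37010743 to 37023398 on chromosome 17 and Mag 30899176 to 30914873 on chromosome 7, both on the minus strand. Cnp spans 100574904 to 100591729 on chromosome 11, plus strand, and Ermn 58045113 to 58052864 on chromosome 2, minus strand. Sox10 spans 79154908 to 79165240 on chromosome 15, minus strand. Opalin (41061710 to 41077113) and Myrf (10208272 to 10240748) are both on the minus strand of chromosome 19. Exons of 2 members overlap exons of a gene on the opposite strand, 154 bases of Cnp with Dnajc7 and 237 bases of Ermn with Galnt5. Without a stated strand setting, reads from those stretches cannot be assigned to one gene. The other 7 members have no such overlap, but exons of Mobp overlap those of Gm38642 on the same strand.

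Mbp encodes myelin basic protein, which holds the cytoplasmic faces of the compacted membrane together. It had 29850 and 30878 counts (control) and 34957 and 32319 counts (ATO), which is 2025 and 2045 against 2007 and 1946 normalised CPM. On this scale the groups did not overlap, but as a share of all counts ATO replicate 1 (0.203%) lay between the controls (0.201% and 0.205%). The log2 fold change of -0.04 ± 0.07 was smaller than its error (95% interval -0.20 to 0.12, adjusted p = 0.821). As folds, the interval runs from 0.869 to 1.09. Mobp, a second small basic protein of compact myelin, stood at 708 and 732 CPM in the controls and 721 and 656 CPM in ATO. Its groups overlapped, with ATO replicate 1 between the controls (log2 fold change -0.07 ± 0.08, adjusted p = 0.720). The sign of this small difference rested on ATO replicate 2, without which it was 0.0011.

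Cnp encodes a cyclic nucleotide phosphodiesterase that keeps cytoplasmic channels of the sheath open. It stood at 203 and 209 CPM in the controls and 192 and 194 CPM in ATO. Both ATO libraries lay below both controls, and the log2 fold change was -0.09 ± 0.07 (adjusted p = 0.550). Ermn encodes ermin, a cytoskeletal protein of mature oligodendrocytes that binds actin. It was at 47.2 CPM in both controls, 55.2 in ATO replicate 1 and 44.5 in ATO replicate 2. The ATO libraries thus lay on either side of the controls (log2 fold change 0.08 ± 0.10, adjusted p = 0.746), and without ATO replicate 1 the value was -0.08.

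Mag encodes an adhesion molecule of the membrane that faces the axon. It stood at 106 CPM in control replicate 1, 127 in control replicate 2, and 103 and 105 in ATO. The low position of ATO came mostly from control replicate 2, since control replicate 1 lay within 3 CPM of both ATO libraries. The log2 fold change was -0.16 ± 0.09 (adjusted p = 0.367). Mog encodes a surface protein of the outermost layer of the sheath. It showed a like pattern, with 38.4 and 42.8 CPM in the controls and 38.1 and 37.7 CPM in ATO (log2 fold change -0.10 ± 0.10, adjusted p = 0.653). Without control replicate 2 the log2 fold change of Mag was -0.03 and that of Mog -0.02.

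Opalin, found at the paranodes and inner loops of the sheath, had 330 and 338 counts in control replicates 1 and 2. It had 230 and 251 counts in ATO replicates 1 and 2, although both ATO libraries were sequenced more deeply. This is 22.4 CPM in both controls (mean 22.4 ± 0.00156 SD, n = 2) against 13.2 and 15.1 CPM in ATO (mean 14.2 ± 1.35 SD, n = 2). The groups did not overlap, and the controls were 1.58-fold above ATO (95% interval of the log2 fold change -0.94 to -0.39). By p-value it ranked 189th of all 15713 genes. The upper bound of its interval lay below the lower bound of every other member. The near identity of the 2 controls is a property of 2 libraries and not an estimate of the spread between mice. Of 11 alternative analyses, that with no low-count filter repeats the main fit, since the filter removed 0 genes. Opalin passed in 9 of the 11, with log2 fold changes from -0.76 to -0.57. It missed the threshold without control replicate 2 (adjusted p = 0.0638) and without ATO replicate 1 (adjusted p = 0.0640). In the authors' deposited table Opalin has a log2 fold change of -0.66 and an adjusted p of 0.0133, and is not marked as differential, since their mark requires an absolute log2 fold change over 1.

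**Figure D2:**
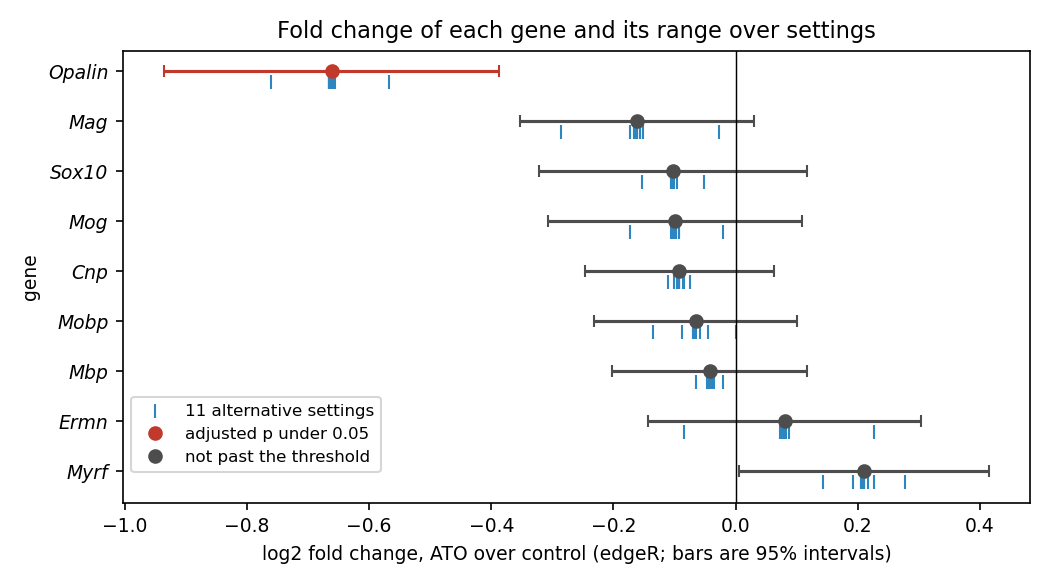
Log2 fold change of ATO over control for the 9 genes, with 95% intervals from edgeR (2 libraries per group) and small ticks for the 11 alternative analyses. The interval of Opalin, -0.94 to -0.39, lies below those of the other 8 genes, and that of Myrf, 0.01 to 0.41, lies just above 0 although its adjusted p was 0.264.

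Opalin was also compared with the other members within each library, which needs no scaling between libraries. The ratios reuse the Opalin counts already tested, so they add no independent support. There were 0.583 and 0.522 Opalin counts per Mog count in the controls, and 0.346 and 0.400 in ATO. Per Mbp count, Opalin stood at 0.0111 and 0.0109 (control) and at 0.00658 and 0.00777 (ATO). For each of the 8 other members as the denominator, both ATO libraries lay below both controls, and the ratio was 1.42-fold (Mag) to 1.84-fold (Myrf) higher in control. An exact two-sided permutation test gives p = 0.333 for each of the 8 ratios, also after Benjamini-Hochberg adjustment over them, which is the smallest p that 2 libraries against 2 allow. Against the geometric mean of the 8 others, Opalin stood at 0.178 and 0.169 in control libraries and 0.103 and 0.122 in ATO libraries.

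**Figure D3:**
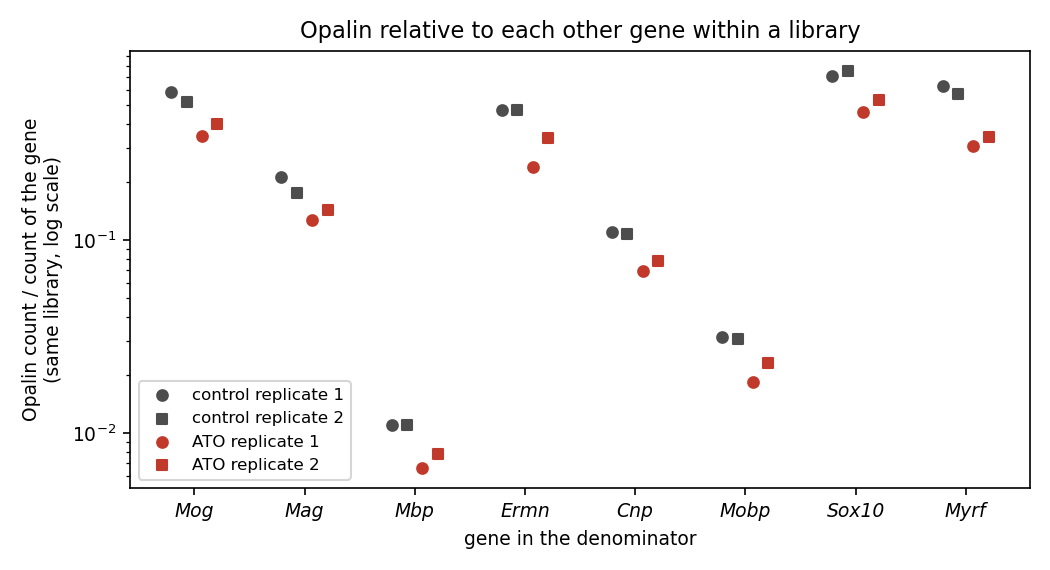
Counts of Opalin per count of each of the other 8 genes in the same library, on a log axis, with 1 point per library. For each of the 8 denominators both ATO points lie below both control points, as in the ratio to Mog (0.346 and 0.400 against 0.583 and 0.522).

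The sequence before the Opalin start is shown beside those of Mog and Ermn, members that did not pass the test, because Sox10 and Myrf act at the regulatory sequences of such genes. RefSeq promoter windows on GRCm38.p6 were matched for 6 of the 9 members (Mag, Mobp, Cnp, Mog, Opalin and Ermn). The 250 bases before the start were searched on both strands for the core letters ACAAAG and ACAATG, bound by SOX proteins, and for CTGGNAC, bound by MYRF. The 3 windows below hold no annotated exon, are written in the direction of the gene, and have the matches in capitals. They are chr19:41077114-41077363 (Opalin), chr17:37023399-37023648 (Mog) and chr2:58052865-58053114 (Ermn), all on the minus strand.
Opalin: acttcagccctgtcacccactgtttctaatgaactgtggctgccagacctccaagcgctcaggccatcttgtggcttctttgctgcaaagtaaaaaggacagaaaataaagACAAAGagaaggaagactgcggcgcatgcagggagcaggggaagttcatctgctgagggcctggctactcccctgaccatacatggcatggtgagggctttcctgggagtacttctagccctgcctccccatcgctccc
Mog: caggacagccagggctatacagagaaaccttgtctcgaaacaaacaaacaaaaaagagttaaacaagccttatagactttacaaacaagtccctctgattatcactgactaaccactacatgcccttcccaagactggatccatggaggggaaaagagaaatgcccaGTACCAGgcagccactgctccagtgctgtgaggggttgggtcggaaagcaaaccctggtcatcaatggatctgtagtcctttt
Ermn: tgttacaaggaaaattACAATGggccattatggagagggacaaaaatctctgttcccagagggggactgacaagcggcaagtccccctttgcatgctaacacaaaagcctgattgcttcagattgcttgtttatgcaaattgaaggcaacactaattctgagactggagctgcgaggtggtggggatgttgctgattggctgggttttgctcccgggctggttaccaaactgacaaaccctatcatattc

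The Opalin window holds 1 match of ACAAAG, beginning 139 bases before the start, and none of the other sets of letters. The Mog window holds 1 match of the MYRF letters, read on the opposite strand as GTACCAG, 83 bases before the start. The Ermn window holds ACAATG 234 bases before the start. ACAAAG also occurs in windows of members that did not pass and are not printed: 1 match for Cnp, 6 for Mobp and 1 for Mag. The Mag match is the same site seen in 2 overlapping windows, and another Mag window holds none of the letters. The MYRF letters occur in windows of Cnp and Mag too, with 2 matches each. Such matches are common: of all 32851 windows of the same length, 16.5% hold ACAAAG, 10.7% ACAATG, 16.1% CTGGNAC and 37.2% at least 1 of them. The letters describe the sequence only, and these data hold no measurement of binding.

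The transcription factors among the members went in different directions, and neither passed. Sox10 had 31.6 and 29.6 CPM in the controls and 28.5 CPM in both ATO libraries (log2 fold change -0.10 ± 0.10, adjusted p = 0.661). Myrf had 526 and 594 counts in control and 747 and 729 counts in ATO, or 35.7 and 39.3 CPM against 42.9 and 43.9 CPM. Both ATO libraries lay above both controls for Myrf, at 1.16-fold (log2 fold change 0.21 ± 0.10, adjusted p = 0.264). It stayed above 0 but passed in none of the 11 alternative analyses (0.14 to 0.28, adjusted p 0.156 to 0.661). Per Sox10 count there were 1.13 and 1.33 Myrf counts in control libraries and 1.51 and 1.54 in ATO libraries.

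Across the members, the groups did not overlap for 7 of 9 genes, 6 of them lower and 1, Myrf, higher in ATO. Over all genes the groups did not overlap for 48.1%, and for 23.4% they did so with ATO lower. Control replicate 2 was the highest library for 5 of the 9 genes and control replicate 1 for 2. The lowest value was in ATO replicate 1 for 4 genes and in ATO replicate 2 for 4. Without control replicate 2 the median log2 fold change of the members was -0.04 in place of -0.09. Measured against the mean of the controls, the median member was at -0.02 and 0.02 (log2) in control replicates 1 and 2. It was at -0.09 and -0.10 in ATO replicates 1 and 2. The control values mirror each other by construction, because their own mean is the reference.

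**Figure D4:**
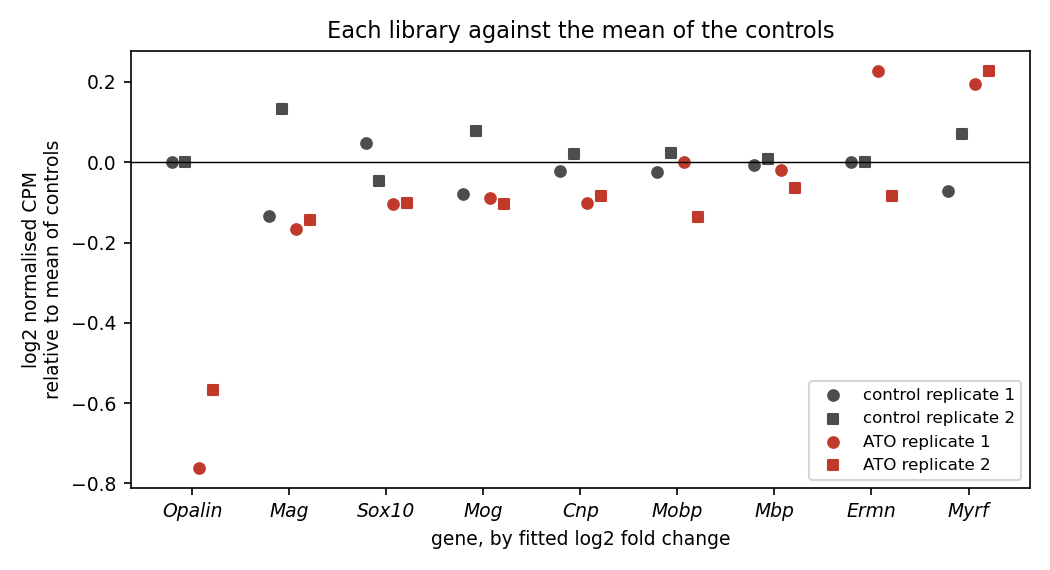
Log2 of each library's normalised CPM over the control mean, for the 9 genes. The ATO points of Opalin, at -0.76 and -0.57, lie apart from those of the other 8 genes, which reach up to 0.23 (Myrf and Ermn).

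Other genes of the pathway were read from lists grouped by role. The counts called in each list stand beside 2.87% of all genes called higher and 0.859% lower. Among 19 other proteins of compact myelin and its paranodes, 1 was higher and 0 lower, with a median log2 fold change of -0.02. Mal, a raft proteolipid, had a log2 fold change of 0.07 (adjusted p = 0.706), and Cldn11, the tight junction claudin of the sheath, one of 0.02 (adjusted p = 0.927). The gene that rose was Cd9, a tetraspanin also made by other cells, at 39.7 and 33.1 CPM in the controls and 51.0 and 50.3 CPM in ATO (log2 fold change 0.48 ± 0.10, adjusted p = 0.0197, or 0.141 without control replicate 2). Tmem88b was at -0.22 (adjusted p = 0.207).

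Of 13 enzymes of myelin lipids, 1 was higher and 0 lower, with a median of 0.02. Elovl7, an elongase of long-chain fatty acids, had 138 and 149 counts in control and 295 and 327 counts in ATO. It rose 1.9-fold (log2 fold change 0.93 ± 0.15, adjusted p = 0.00239) and passed in all 11 alternative analyses. Ugt8a, which makes galactosylceramide, had a log2 fold change of -0.14 (adjusted p = 0.525), and Aspa, which supplies acetate from N-acetylaspartate, one of -0.34 (adjusted p = 0.303).

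Among 17 other markers of mature oligodendrocytes, 1 was higher and 0 lower, with a median of 0.07. Enpp2, which makes lysophosphatidic acid as secreted autotaxin, had 86.6 and 115 CPM in the controls and 723 and 916 CPM in ATO (log2 fold change 3.02 ± 0.13, adjusted p = 1.25e-08). Enpp2 is also a marker of choroid plexus, a secretory tissue of the ventricles that lies against the fimbria. All 14 choroid plexus markers, Enpp2 among them, were higher in ATO. Their summed level was 135 and 208 CPM in the controls and 3273 and 4112 CPM in ATO, with a median log2 fold change of 4.53 and none at 0 in any library. The part of that tissue in the values of Enpp2, Elovl7, Cd9 and the other genes named here was not tested. Trf, the iron carrier transferrin, had a log2 fold change of 0.21 (adjusted p = 0.179). Ptgds, prostaglandin D synthase, had 334 and 213 CPM in the controls and 556 and 278 CPM in ATO, so its groups overlapped (adjusted p = 0.177).

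Among 11 transcription factors of the lineage beside Sox10 and Myrf, none passed by edgeR, DESeq2 or limma-voom (0 of 11 in each). At an unadjusted p under 0.05 there was 1 higher and 3 lower, where 10.6% of all genes were higher and 7.55% lower. The median log2 fold change was -0.22, with 8 of 11 below 0. This median was -0.09 without control replicate 1, -0.14 without ATO replicate 2 and -0.08 among genes of 10 CPM or more. Olig2, which specifies the lineage, had 38.1 and 28.6 CPM in the controls and 29.0 and 24.8 CPM in ATO (log2 fold change -0.31 ± 0.13, adjusted p = 0.239). Its partner Olig1 was at -0.13 (adjusted p = 0.485) and Nkx2-2 at -0.32 (adjusted p = 0.554). Without control replicate 1, the highest library for all 3 genes, Olig2 was at -0.09, Olig1 at -0.01 and Nkx2-2 at -0.06. Nkx6-2 had a log2 fold change of -0.56 (adjusted p = 0.149), from 7.33 and 8.61 CPM in the controls and 5.45 and 5.36 CPM in ATO. St18 was at 0.39 (adjusted p = 0.141) and Zeb2, which also marks other cell types, at -0.22 (adjusted p = 0.149).

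Of 16 genes that regulate Myrf, Sox10 or the handling of Mbp RNA, 2 were higher and 1 lower, with a median of -0.01. Over all genes 2.87% were called higher and 0.859% lower. Gpr17, a receptor that holds oligodendrocytes at an immature stage, had 706 and 681 counts in control and 1076 and 1050 counts in ATO. It rose 1.34-fold (log2 fold change 0.43 ± 0.09, adjusted p = 0.0137, or 0.0893 without control replicate 2). Of its merged exons 188 bases overlap Lims2 on the opposite strand. Id4, an inhibitor of basic helix-loop-helix factors that is also made by astrocytes, stood at 82.3 and 73.5 CPM in the controls and 97.2 and 99.4 CPM in ATO. It rose by a log2 fold change of 0.34 ± 0.08 (adjusted p = 0.0388) and did not pass with DESeq2 (adjusted p = 0.0793) or without control replicate 2, ATO replicate 1 or ATO replicate 2 (0.0932 to 0.192). Fbxw7, a ubiquitin ligase subunit with Myrf protein among its substrates, had 2750 and 2974 counts in control and 2515 and 2557 counts in ATO. It fell by a log2 fold change of 0.36 ± 0.08 (adjusted p = 0.0172, or 0.0816 without control replicate 2 and 0.161 without ATO replicate 1). Tmem98, which binds Myrf protein and blocks its self-cleavage, was at 0.29 (adjusted p = 0.428). Qk, the RNA-binding protein quaking that acts on Mbp RNA, was at 0.13 (adjusted p = 0.467). Both values moved with single control libraries: without control replicate 1 Tmem98 was at 0.08 and Qk at 0.26, and without control replicate 2 they were at 0.54 and 0.0048.

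The earlier stages of the lineage were measured in the same libraries. Among 10 markers of newly formed oligodendrocytes, Gpr17 was the 1 gene that passed, with a list median of 0.03. Bcas1 had a log2 fold change of -0.12 (adjusted p = 0.437) and Enpp6 one of 0.03 (adjusted p = 0.961). Among 15 markers of precursor cells, 1 was higher (Gpr17 again) and 1 lower, with a median of -0.04. The lower gene was Cspg4, the NG2 proteoglycan, which pericytes also make, with 344 and 318 counts in control and 297 and 235 counts in ATO (log2 fold change -0.51 ± 0.13, adjusted p = 0.0496). Cspg4 missed the threshold in 7 of the 11 alternative analyses (adjusted p 0.0518 to 0.281 in these). Pdgfra, the growth factor receptor that defines precursors, had 46.9 and 42.8 CPM in the controls and 41.5 and 45.9 CPM in ATO (adjusted p = 0.884).

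Of 16 axonal genes that face the sheath, such as channels and adhesion molecules of the node and its flanks, none passed by edgeR, DESeq2 or limma-voom (0 of 16 in each). At an unadjusted p under 0.05, 2 were lower and 0 higher, where 7.55% and 10.6% of all genes were. Of the 16 fold changes 13 were below 0, against 51% of all genes, and the median was -0.06 (-0.11 without control replicate 1, -0.04 without ATO replicate 1, -0.10 without ATO replicate 2). Scn8a, the main sodium channel of mature nodes, had a log2 fold change of -0.20 ± 0.07 (adjusted p = 0.161), and Adam22 one of -0.20 ± 0.08 (adjusted p = 0.173). The 12 neuron markers had a like median of -0.06. Medians of the other cell type lists were 0.01 for astrocytes, 0.04 for microglia and 0.04 for endothelial cells, and 0.17 for markers of the neighbouring thalamus and habenula. Without 1 library the endothelial median ran from -0.15 to 0.15, the microglia median from -0.05 to 0.13 and the astrocyte median from -0.04 to 0.06, so these show no direction. In these lists Gjb6, an astrocyte connexin, and Zic1, in the thalamus and habenula list, were called higher, and Kdr, a growth factor receptor of endothelial cells, lower. The medians of the lists of compact and paranodal proteins, lipid enzymes, regulators and precursor markers, from -0.04 to 0.02, also changed sign when 1 library was left out.

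**Figure D5:**
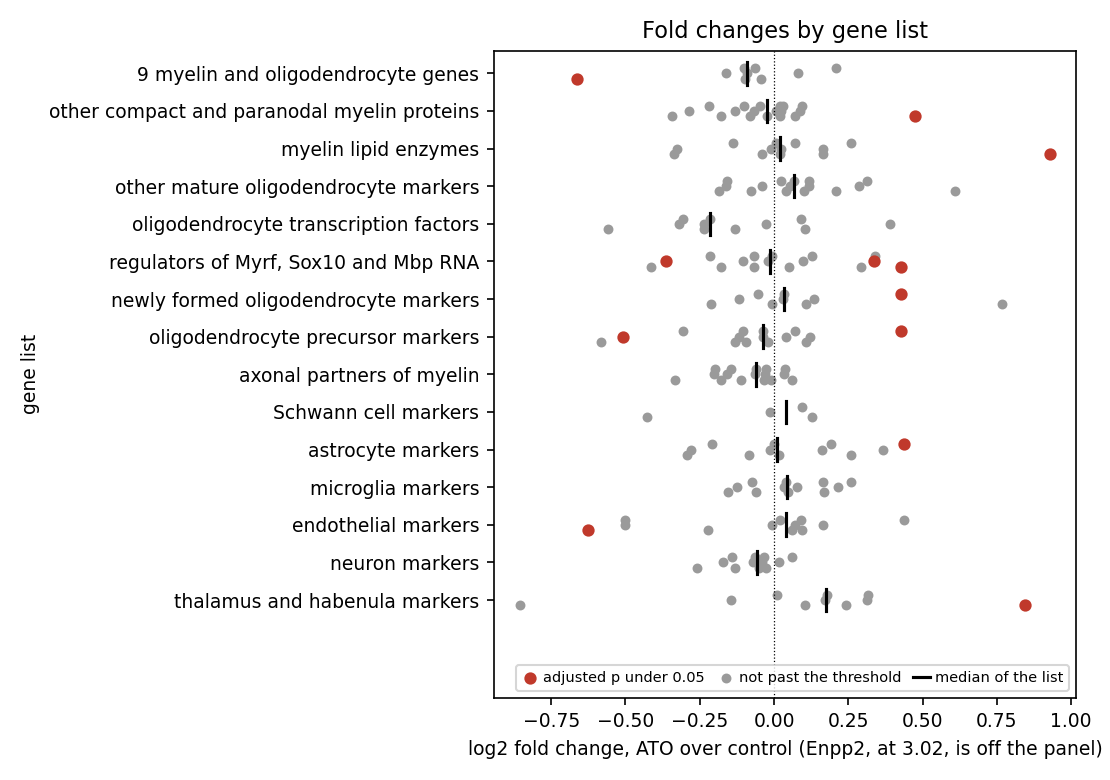
Log2 fold change of ATO over control for each tested gene of 15 lists, with the median of each list as a bar and genes with an adjusted p under 0.05 in red; the choroid plexus list (14 of 14 higher, median 4.53) and Enpp2 (3.02) lie off the panel. Opalin is the 1 red point among the 9 myelin and oligodendrocyte genes.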

How the data were processed

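Hippocampal mRNA libraries were made with an Illumina TruSeq RNA kit, per the labels' protocols. Per the submitters' processing notes the build was GRCm38 and the tools, named without a role, were HISAT2 2.0.1, HTSeq 0.6.1, limma 3.47.15, R 4.1.0, cutadapt 1.9.1 and FastQC 0.10.1; whether counting used strand is not given in the sources used here. The deposited table gives, per the file headers, a count of reads and an FPKM value for each gene and library. It also gives the authors' log2 fold change, their p-value and their adjusted p-value. Deposited FPKM was used to compare genes with each other and to describe single libraries, and entered no test. The gene length it implies was close to the merged exon length (Mbp 8489 against 8469 bases).

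The test, on deposited counts of all 15713 genes, was that of edgeR 4.0.16 under R 4.3.3 (TMM factors 0.994 to 1.01, filterByExpr, which removed 0 genes, and the quasi-likelihood test with no covariate), with Benjamini-Hochberg adjustment over all genes. The common biological coefficient of variation was 7.16%. The SE is the log2 fold change divided by the square root of F, and intervals are at 95%. DESeq2 1.42.0 and voom of limma 3.58.1 were among the 11 alternatives. The alternative with no low-count filter repeats the main fit, since the filter removed 0 genes. The code was tested on simulated data. Identifiers of 15703 genes (99.9%) were found in GENCODE vM21.

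The members, the 15 other lists and the rule for named genes were chosen with earlier results of these data known, so nothing here is independent support for them. All members are named, and of each list up to 4 genes with the smallest p plus a fixed set of textbook genes; some genes that the rule takes are left out of the text. Genes whose profile is most like the members are the 5 outside all lists, with at least 10 CPM, at the smallest distance in centred log2 CPM. Between any 2 libraries 136 to 217 genes had equal counts (no 2 libraries were duplicates).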

Additional observations from a re-analysis of the deposited data

How the results depend on the processing

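Of 99 member values under the 11 alternatives, 95 kept direction and call; the 2 lost calls are those of Opalin, and the 2 changes of sign are those of Mobp and Ermn when 1 ATO library is left out. Leaving out 1 library gave 0 to 1 changed and 0 to 1 lower members and a median of -0.10 to -0.039, against 1, 1 and -0.09; with 1 library left in a group, its spread is assumed to be that of the other group. Over all genes, 316 changed with DESeq2 (252 higher, 64 lower), 296 were higher when only genes averaging 10 CPM or more were tested, and without 1 library 222 to 611 changed (180 to 443 higher, 42 to 168 lower), against 586, 451 and 135; each lowest count was without control replicate 2, and without ATO replicate 1 300 were higher. In the 8 other oligodendrocyte and axon lists (110 genes), 5 were higher and 2 lower, beside 2.87% and 0.859% of all genes. Without 1 library, 2 to 7 were higher and 0 to 2 lower (2 and 0 without control replicate 2, 1 lower without control replicate 1 or ATO replicate 2), and 1 was lower with library size only, with only genes of 10 CPM or more, with DESeq2 and with limma-voom.

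The replicate numbers are shared between the groups, but nothing in the labels says that they pair the libraries. The difference between replicates 1 and 2 correlated at 0.109 between the groups across 15466 genes, which are not independent replicates, with only 2 pairs. With the replicate number as a block, 1366 genes changed (890 higher, 476 lower), 10 genes of the other lists were higher and 6 lower, and the count of members did not change (1).

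Signs turned for genes with small differences: without 1 library the log2 fold change ran from -0.14 to 0.0011 for Mobp, -0.084 to 0.23 for Ermn, -0.019 to 0.15 for Mal, -0.092 to 0.15 for Cldn11, -0.17 to 0.26 for Enpp6 and -0.11 to 0.034 for Pdgfra. Opalin has 230 to 338 counts per library, and the lists' transcription factors at under 10 CPM have wider intervals.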

Other observations

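Outside all lists, the genes whose profile over the 4 libraries was most like the mean of the 9 members were Rps6kb2, Celf6, Rab3gap1, Plaa and Maf1, out of 9891 candidates with a mean of at least 10 CPM. Their distances were 0.00858 to 0.0149 in centred log2 CPM, and none of these 5 passed the test. The mean profile of the 9 members was 0.02 and 0.08 in control replicates 1 and 2 and -0.04 and -0.07 in ATO replicates 1 and 2. It includes Opalin, with much larger values of 0.33 and 0.33 in control and -0.43 and -0.23 in ATO. The mean and the genes found for it thus depend on Opalin, and no search was made without it. Rps6kb2 had 45.4 and 47.2 CPM in the controls and 43.4 and 42.9 CPM in ATO. The same search for Opalin, added after its values were seen, gave Fhl2, Plekha7, Tnxb, Kcna4 and Dusp26, at distances of 0.126 to 0.156. Kcna4, a voltage-gated potassium channel gene, had 41.4 and 36.8 CPM in the controls and 22.6 and 24.4 CPM in ATO. A distance over 4 libraries is a description.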
